A study of Mus musculus with 8 samples.

Results

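Trp53, the gene of the tumour suppressor p53, and 9 genes that p53 switches on (Mdm2, Ccng1, Cdkn1a, Bax, Bbc3, Perp, Phlda3, Trp53inp1 and Zmat3) were followed across 8 RNA-seq libraries of a mouse embryonic stem cell line. The genes were chosen by name, and each of the 10 was found once among the 21069 features of the day 5 files and once among the 19011 of the day 0 table, which have 17363 features in common. All libraries come from 46C, a line whose neural gene Sox1 carries a green fluorescent reporter, given the strain label C57BL/6. The 4 groups were the line labelled LincNDIME_KO (here KO), named for the loss of a long noncoding RNA, a line with a hairpin RNA named for the transcription factor gene Mef2c (shMef2c), a line with a control hairpin (shCtrl), and wild type (WT). Each group was sequenced at day 5, as neural progenitor cells formed from aggregates in serum replacement medium, and at day 0, as stem cells kept with the cytokine LIF on irradiated mouse embryonic fibroblasts, with 1 library for each group and day. No replicate exists, so no p-value is given, and every difference describes these libraries alone. The sources used here do not say whether each line was 1 clone or a pool.

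The p53 protein is a transcription factor that is made continuously and broken down quickly while cells are unstressed. DNA damage and other stresses stabilise it, and it then raises genes that stop the cell cycle, start cell death, repair DNA or, through Mdm2, lead to its own destruction. Because p53 is controlled mainly as a protein, the mRNA of Trp53 and the mRNA of its targets are separate readouts. Mouse embryonic stem cells are known for abundant Trp53 mRNA.

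Estimated reads assigned to genes came to 25996204 to 26834802 per library at day 5 and 20312032 to 20883674 at day 0. Mef2c, the hairpin's target, had 17 and 20 reads in the day 5 KO and shMef2c libraries, against 82 in shCtrl and 77 in WT. At day 0 it had 44 reads in the shMef2c library and 20 in shCtrl, the reverse of what its label says, and that day 0 sample is therefore named the library labelled shMef2c. Neural progenitor markers summed to 126 FPKM in KO, 53.1 in shMef2c, 462 in shCtrl and 397 in WT at day 5, and to 26.3 to 37.2 RPKM at day 0. Naive pluripotency markers summed to 1778 FPKM in KO, 2125 in shMef2c, 397 in shCtrl and 599.8 in WT at day 5, so the day 5 KO and shMef2c libraries carried less of the labelled cell type's markers and more stem cell mRNA. No feature carries the name NDIME, so the deletion was not checked here.

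Promoter sequence is shown for the 5 genes whose RefSeq window holds the p53 consensus half-site, a pattern of 10 bases that p53 binds as a pair. The windows run from 250 bases before to 50 bases after the gene start in RefSeq's GRCm38.p6 assembly, read along the gene's strand. A window was found for 7 of the 10 genes (10 windows), and no window for Perp, Trp53inp1 and Zmat3. They lie at chr11:69580109-69580408 (Trp53, plus strand), chr10:117710709-117711008 (Mdm2, minus strand), chr11:40755237-40755536 (Ccng1, minus strand), chr17:29090729-29091028 (Cdkn1a, plus strand) and chr7:45466849-45467148 (Bax, minus strand). Each half-site is in capitals.
Trp53: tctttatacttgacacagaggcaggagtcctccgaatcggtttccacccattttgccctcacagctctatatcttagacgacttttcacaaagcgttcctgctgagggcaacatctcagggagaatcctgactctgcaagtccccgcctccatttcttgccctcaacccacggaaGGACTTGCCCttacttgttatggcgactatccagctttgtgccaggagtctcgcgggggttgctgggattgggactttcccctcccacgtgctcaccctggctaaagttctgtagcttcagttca
Mdm2: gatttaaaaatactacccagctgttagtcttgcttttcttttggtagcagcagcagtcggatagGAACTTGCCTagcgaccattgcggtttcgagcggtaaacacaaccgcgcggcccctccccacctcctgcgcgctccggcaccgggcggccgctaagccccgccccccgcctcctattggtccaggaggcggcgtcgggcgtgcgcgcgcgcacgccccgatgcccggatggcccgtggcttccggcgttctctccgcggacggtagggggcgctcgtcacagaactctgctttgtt
Ccng1: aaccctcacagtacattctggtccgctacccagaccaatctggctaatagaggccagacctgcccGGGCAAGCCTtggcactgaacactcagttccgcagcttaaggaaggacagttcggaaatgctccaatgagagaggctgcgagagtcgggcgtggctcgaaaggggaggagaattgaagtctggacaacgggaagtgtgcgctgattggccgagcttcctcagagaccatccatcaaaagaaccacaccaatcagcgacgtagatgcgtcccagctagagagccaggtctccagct
Cdkn1a: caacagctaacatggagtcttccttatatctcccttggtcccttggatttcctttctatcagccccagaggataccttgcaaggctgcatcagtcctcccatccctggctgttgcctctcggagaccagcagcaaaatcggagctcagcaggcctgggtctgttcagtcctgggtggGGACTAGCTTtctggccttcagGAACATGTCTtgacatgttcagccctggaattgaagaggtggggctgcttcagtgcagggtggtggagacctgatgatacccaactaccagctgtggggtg
Bax: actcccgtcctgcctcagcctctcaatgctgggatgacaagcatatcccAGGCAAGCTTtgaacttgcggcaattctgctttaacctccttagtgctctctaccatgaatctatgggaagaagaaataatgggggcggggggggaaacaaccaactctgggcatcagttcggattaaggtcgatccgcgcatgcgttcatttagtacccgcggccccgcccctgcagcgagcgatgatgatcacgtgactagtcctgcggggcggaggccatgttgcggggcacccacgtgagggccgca
The capitals start at base -75 from the gene start in Trp53, -186 in Mdm2, -185 in Ccng1, -73 and -51 in Cdkn1a, and -201 in Bax. Of 32851 RefSeq windows of 27025 mouse genes, 2745 (8.36%) hold a half-site. The pattern is its own reverse complement, so a match covers both strands. Cdkn1a alone among the 7 genes with a window has a pair without a mismatch, 12 bases apart, which 24 windows (0.0731%) have. The 10 bases directly after its second half-site miss the pattern by 1 base and are in lower case. With that half-site they form an adjoining pair with 1 mismatch. Ccng1 and Bax have a pair with 1 mismatch (359 windows, or 1.09%, have a pair with at most 1). No half-site was matched in the Phlda3 window, in the 3 Bbc3 windows or in the second Cdkn1a window. That second window lies downstream, at chr17:29093519-29093818, and its best pair has 5 mismatches. The distances given for Cdkn1a therefore count from its upstream start. A match is a description of letters and no measure of binding.

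Trp53 itself was among the abundant mRNAs of every library. It stood at 155 FPKM in KO, 143 in shMef2c, 83.0 in shCtrl and 105.5 in WT at day 5. At day 0 it stood at 269 RPKM in KO, 269.5 in the library labelled shMef2c, 309 in shCtrl and 380.05 in WT. KO and shMef2c were thus the high libraries for Trp53 at day 5 and the low ones at day 0, where their values could not be told apart by counting error (ratio of read shares of shMef2c over KO 1.01, interval 0.978 to 1.03). All intervals here are exact 95% intervals on a ratio of read shares and cover counting error only, not differences between cultures. Among the features present in both tables, Trp53 ranked at or above percentile 94.8 at day 5 and 98.7 at day 0. In bulk RNA, fewer cells that express a gene and less mRNA per cell cannot be told apart.

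Mdm2 encodes the ubiquitin ligase that marks p53 for destruction, and Ccng1 encodes cyclin G1, which recruits a phosphatase that activates Mdm2. Mdm2 stood at 50.45 FPKM in KO, 35.7 in shMef2c, 25.4 in shCtrl and 29.5 in WT at day 5. Its day 0 levels were 101 RPKM in KO, 126 in the library labelled shMef2c, 102 in shCtrl and 62.4 in WT. Mdm2 was therefore high in KO at day 5 and low in WT at day 0, and its KO and shCtrl values at day 0 did not differ beyond counting error (ratio of read shares 0.989, interval 0.956 to 1.02). Ccng1 stood at 162 FPKM in KO, 118 in shMef2c, 148 in shCtrl and 173 in WT at day 5. It stood at 143 RPKM in KO, 175 in the library labelled shMef2c, 135 in shCtrl and 81.55 in WT at day 0. For Ccng1 the 2 days ran in opposite order at the ends, with shMef2c the low and WT the high library at day 5, and WT the low and shMef2c the high one at day 0.

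Cdkn1a encodes p21, the inhibitor of cyclin-dependent kinases that carries out the p53 cell-cycle arrest. Its day 5 levels were 42.3 FPKM in KO, 48.6 in shMef2c, 29.7 in shCtrl and 52.5 in WT. At day 0 they were 87.2 RPKM in KO, 126 in the library labelled shMef2c, 96.6 in shCtrl and 78.7 in WT. WT was the high library for Cdkn1a at day 5 and the low one at day 0, and shCtrl was the low one at day 5.

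The cell death genes were Bax, a pore-forming protein of the outer mitochondrial membrane, Bbc3, the BH3-only protein Puma that sets such pores off, and Perp, a membrane protein of cell junctions with a role in p53-dependent death. Bax stood at 319 FPKM in KO, 342 in shMef2c, 239.6 in shCtrl and 274 in WT at day 5, and at 166 RPKM in KO, 201 in the library labelled shMef2c, 184 in shCtrl and 128 in WT at day 0. Bbc3 stood at 16.45 FPKM in KO, 15.55 in shMef2c, 11.5 in shCtrl and 14.7 in WT at day 5, and at 9.59 RPKM in KO, 18.3 in the library labelled shMef2c, 15.2 in shCtrl and 5.63 in WT at day 0. Both death effectors were low in shCtrl at day 5 and in WT at day 0. The day 5 Bbc3 value of shMef2c differed from neither KO (ratio of read shares 0.948, interval 0.859 to 1.05) nor WT (1.06, 0.955 to 1.17) beyond counting error. Perp stood at 10.1 FPKM in KO, 16.4 in shMef2c, 11 in shCtrl and 9.12 in WT at day 5, and at 14.2 RPKM in KO, 32.0 in the library labelled shMef2c, 21.4 in shCtrl and 8.43 in WT at day 0. Perp was the only one of the 10 genes whose high and low libraries were the same on both days, shMef2c and WT.

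Phlda3 encodes a small lipid-binding protein that blocks the kinase Akt, Trp53inp1 a nuclear and autophagy protein that assists p53, and Zmat3 a zinc finger protein that binds RNA. Phlda3 stood at 43.0 FPKM in KO, 39.4 in shMef2c, 22.4 in shCtrl and 33.6 in WT at day 5, and at 30.6 RPKM in KO, 50.6 in the library labelled shMef2c, 40.3 in shCtrl and 15.8 in WT at day 0. Trp53inp1 stood at 53.6 FPKM in KO, 42.2 in shMef2c, 34.96 in shCtrl and 37.3 in WT at day 5, and at 50.3 RPKM in KO, 74.0 in the library labelled shMef2c, 58.7 in shCtrl and 27.3 in WT at day 0. These genes too were low in shCtrl and high in KO at day 5. Zmat3 went the same way with a smaller spread, at 14.3 FPKM in KO, 12.3 in shMef2c, 10.4 in shCtrl and 13.2 in WT at day 5, and at 11.8 RPKM in KO, 16.4 in the library labelled shMef2c, 13.2 in shCtrl and 7.70 in WT at day 0. At day 0 WT was the low library for all 3.

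**Figure D1:**
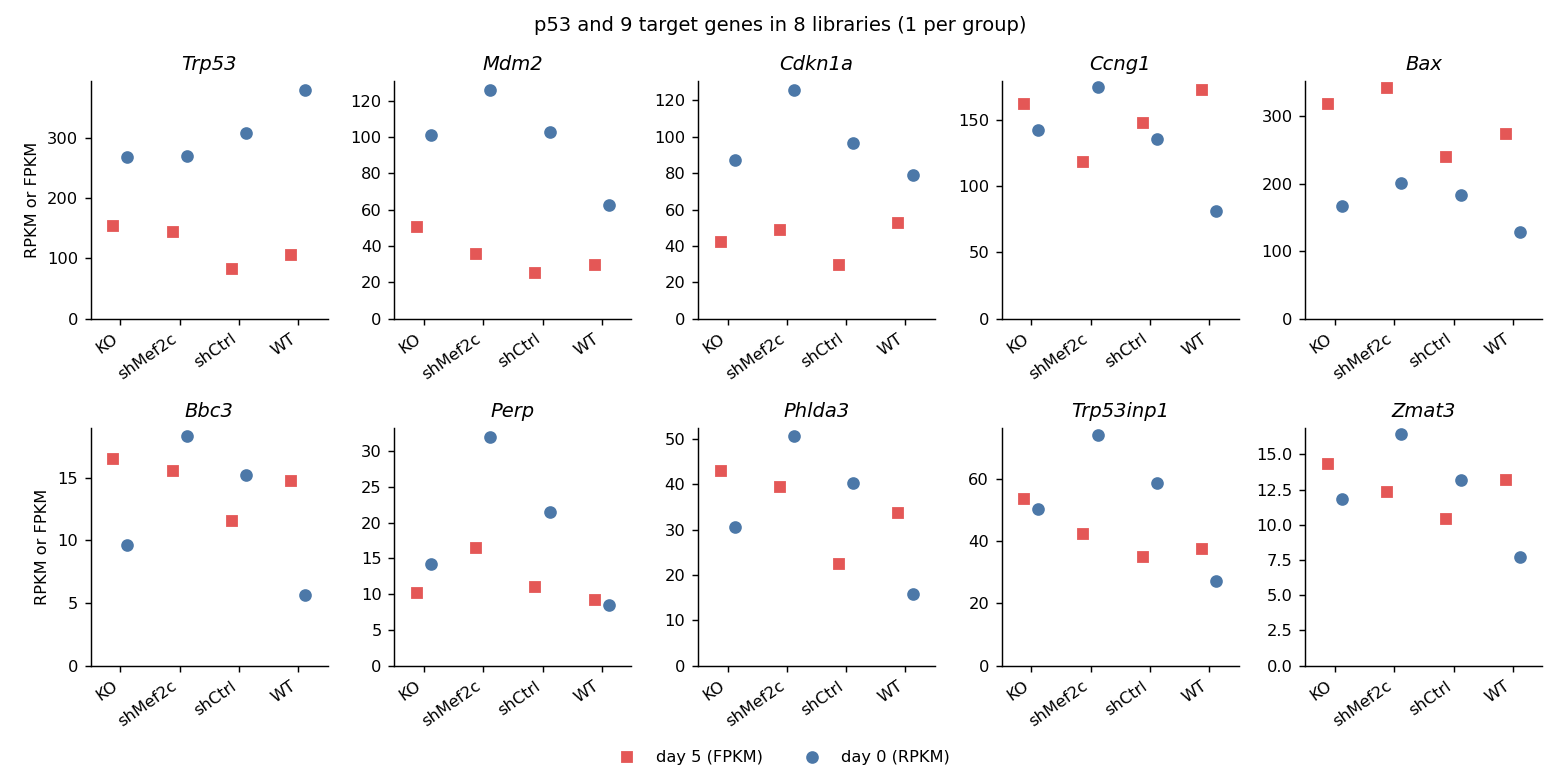
Levels of Trp53 and 9 p53 targets in the 8 libraries, 1 panel per gene, with FPKM at day 5 (red squares) and RPKM at day 0 (blue circles) on a linear axis from 0; each point is 1 library and there is no error bar. At day 0 the WT point is the lowest for every target and the highest for Trp53, at 380.05 RPKM.

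The targets took nearly 1 order over the day 0 libraries. All 9 were lowest in WT and highest in the library labelled shMef2c, an arrangement that 14.7% of 12065 features with a mean of 1 or more RPKM had. Between these ends KO lay below shCtrl for 8 of the 9, Mdm2 within counting error, while Ccng1 was higher in KO. Trp53 was arranged the other way, highest in WT and lowest in KO. The spread was widest for Perp, Bbc3 and Phlda3, with ratios of the highest to the lowest day 0 library of 3.80, 3.25 and 3.20, and narrowest for Cdkn1a and Bax at 1.60 and 1.57. At day 5 these ratios ran from 1.37 to 1.99 over the 10 genes, wider than at day 0 for Trp53 (1.86 against 1.41) and Cdkn1a (1.77 against 1.60), about equal for Mdm2 (1.99 against 2.01) and narrower for the other 7. There shCtrl was the lowest library for 7 of the 9 targets and for Trp53 (25.0% of 12975 features had shCtrl lowest), and KO was the highest for 5 targets and Trp53 (29.7% of features). The genes were chosen with earlier results in view, so these counts describe them and do not single them out.

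At day 5, KO over WT, no target passed 2-fold on the log2 scale with a pseudocount of 1, against 7.31% of 12832 features. Beyond counting error 6 of 9 were higher, against 36.4% of features. This share, like the other shares beyond counting error below, was not matched to the targets for reads. Genes with more reads have narrower intervals and pass with smaller ratios. The targets had a median log2 ratio of 0.15, with 0.00 over all features. Mdm2 had the highest ratio, with a read share 1.71 times that in WT (interval 1.63 to 1.80), followed by Trp53inp1 at 1.44 (1.39 to 1.49). Trp53 had 1.47 times the WT share (1.41 to 1.52). Cdkn1a was below WT at 0.806 times (0.760 to 0.854) and Ccng1 at 0.941 times (0.920 to 0.962), while Perp could not be told from WT (1.11, 0.971 to 1.26). With shCtrl in place of WT, the median of the targets was 0.48 (-0.03 over all features), and Cdkn1a stood at 1.42 times the shCtrl share (1.33 to 1.52), Ccng1 at 1.10 times (1.07 to 1.12) and Perp at 0.914 times (0.806 to 1.04). The KO library thus held more Mdm2 and Trp53 mRNA than either control library, while the direction of Cdkn1a and Ccng1 depended on the control. Beside these ratios, naive pluripotency markers summed to 1778 FPKM in KO and 599.8 in WT, and visceral endoderm markers to 112 and 43.6 FPKM. Of the 10 endoderm markers 8 were higher in KO, with a median log2 ratio of 1.87. Foxa2 went the other way, at 6.45 FPKM in KO against 30.4 in WT, as did Sox17 by little (3.47 against 3.66). The part of cell mixture in the target ratios was not tested.

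For shMef2c over shCtrl at day 5, 0 targets passed 2-fold, against 9.26% of 13041 features, but 8 of 9 were above shCtrl beyond counting error, against 33.1% of features. Their median log2 ratio was 0.48, with -0.05 over all features. Phlda3 had 1.76 times the shCtrl share (interval 1.61 to 1.91), Cdkn1a 1.63 times (1.53 to 1.74), Perp 1.49 times (1.33 to 1.67), and Trp53 1.73 times (1.66 to 1.80). Ccng1 was the exception at 0.799 times (0.779 to 0.819). Set against WT in place of shCtrl, the median of the 9 targets was 0.17 and Cdkn1a changed sign, with a log2 ratio of -0.11 over WT and 0.69 over shCtrl, as did Zmat3 (-0.09 over WT and 0.22 over shCtrl). Naive pluripotency markers summed to 2125 FPKM in shMef2c, against 397 in shCtrl, and their part in the target levels was not tested.

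The control libraries also differed. For shCtrl over WT at day 5, 0.996% of 12845 features and none of the targets passed 2-fold, while 8 of 9 targets were lower in shCtrl beyond counting error, against 24.6% of features. Cdkn1a had 0.568 times the WT share (interval 0.532 to 0.606) and Phlda3 0.669 times (0.612 to 0.731). Perp was the target that was higher in shCtrl, at 1.21 times (1.06 to 1.38). On the log2 scale the median over the targets was -0.22, with 0.02 over all features, and for 6 of the 9 the control libraries lay farther apart than KO and WT did.

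**Figure D2:**
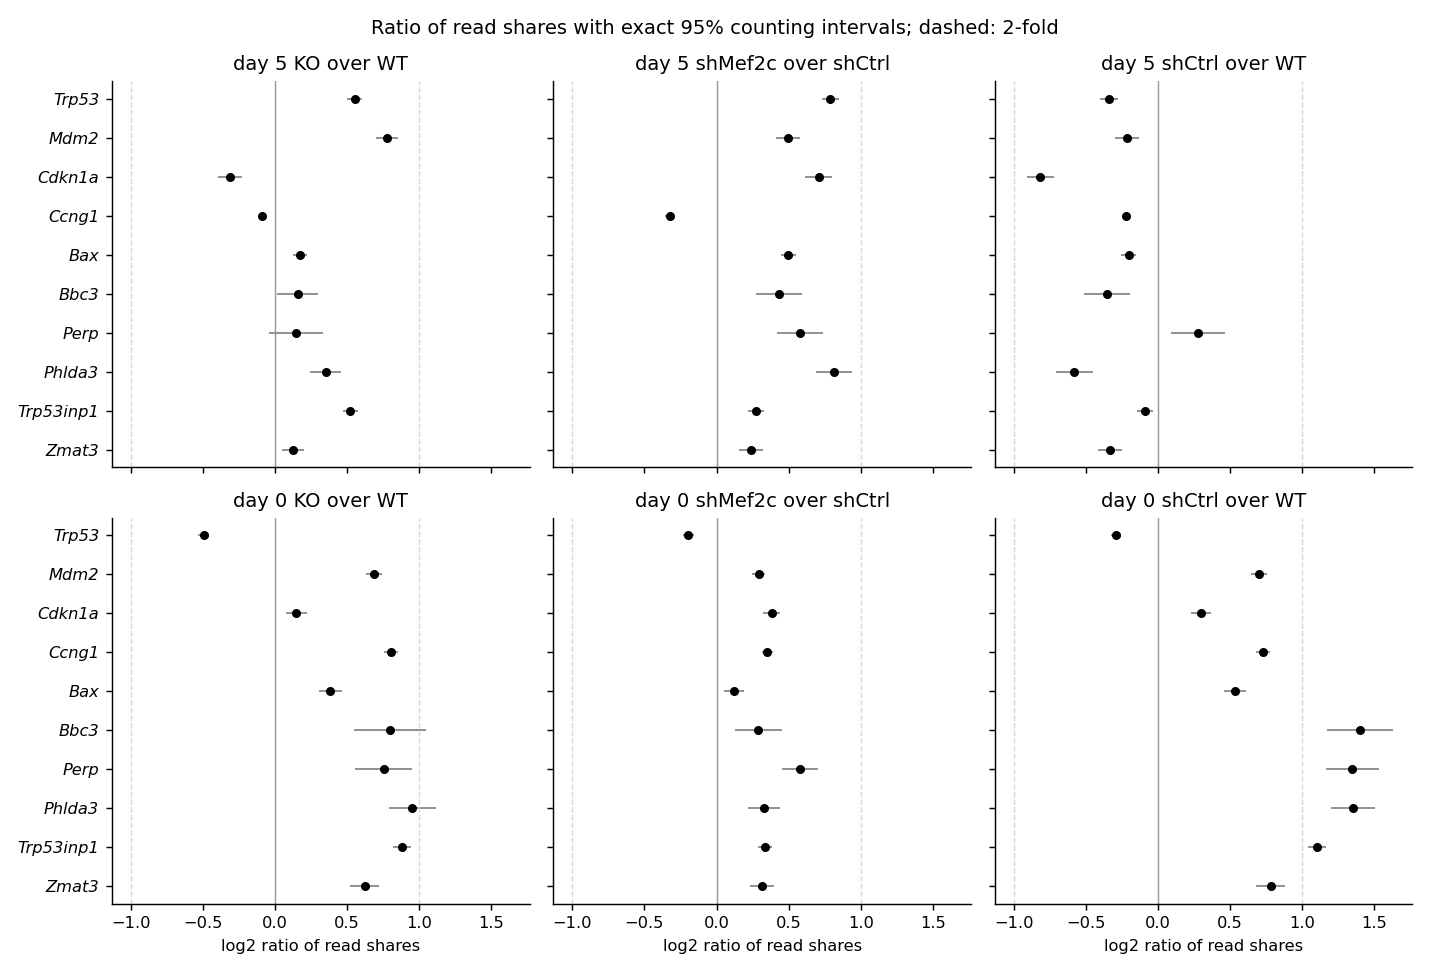
Log2 ratio of read shares for Trp53 and 9 targets in 6 comparisons, day 5 above and day 0 below, with exact 95% intervals that cover counting error only; dashed lines mark 2-fold. At day 0 every target lies right of 0 and Trp53 left of 0 in all 3 comparisons, and at day 5 most targets lie right of 0 for shMef2c over shCtrl and left of 0 for shCtrl over WT.

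At day 0, KO over WT, all 9 targets were higher in KO beyond counting error, against 35.5% of features. None passed 2-fold (2.93% of 12002 features did), but 6 passed 1.5-fold, which 6.31% of features did upwards. Over the 9 targets the median log2 ratio came to 0.69, with 0.03 over all features. Phlda3 had 1.93 times the WT share (interval 1.73 to 2.16), Trp53inp1 1.84 times (1.76 to 1.92) and Ccng1 1.74 times (1.69 to 1.80). Cdkn1a had the smallest ratio, at 1.11 times (1.05 to 1.16), and Trp53 stood at 0.710 times (0.692 to 0.728). Against shCtrl the picture turned, since 7 of 9 targets were lower in KO beyond counting error, against 25.6% of 12006 features, with a median of -0.15. The direction of most targets in KO at day 0 therefore depended on the control library. Beside the ratios over WT, naive pluripotency markers summed to 3042 RPKM in KO and 2406 in WT, with 8 of 10 higher in KO and a median log2 ratio of 0.32. Surface epithelium markers summed to 113 and 147 RPKM, of which Cdh1 gave 90.2 and 92.7. Krt5, Krt14 and Trp63 were at 0.09 RPKM or less in KO and WT. The 6 of 10 with a mean of at least 1 were all lower in KO, 4 of them past 2-fold, with a median of -1.28. The part of these markers' cells in the target levels was not tested.

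For the library labelled shMef2c over shCtrl at day 0, all 9 targets were higher beyond counting error (26.8% of 12103 features were) and none passed 2-fold (0.231% did). Their log2 ratios had a median of 0.32, with 0.03 over all features, and the ratios of read shares ran from 1.09 for Bax (interval 1.04 to 1.14) to 1.49 for Perp (1.37 to 1.63). Over WT, 6 of 9 targets passed 2-fold upwards, against 1.9% of 12087 features, with a median of 1.09. This library also held more feeder fibroblast mRNA. The 10 fibroblast markers summed to 365 RPKM, against 223 in shCtrl, and 10 of 10 were higher, with a median log2 ratio of 0.72. The part of feeder cells in the target levels of that library was not tested.

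Between the day 0 control libraries, shCtrl over WT, 4 of 9 targets passed 2-fold upwards (Phlda3, Bbc3, Perp and Trp53inp1), which 0.755% of 11921 features did, and all 9 were higher beyond counting error, against 27% of features. Bbc3 had 2.64 times the WT share (interval 2.25 to 3.10), Phlda3 2.55 times (2.29 to 2.84), Perp 2.54 times (2.24 to 2.90) and Trp53inp1 2.14 times (2.05 to 2.24). Trp53 stood at 0.817 times (0.797 to 0.838). The targets' median log2 ratio was 0.73, with 0.01 over all features, and this comparison has its WT library in common with KO over WT. Fibroblast markers summed to 203 RPKM in KO, 223 in shCtrl and 215 in WT, with a median log2 ratio of 0.06 for shCtrl over WT.

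**Figure D3:**
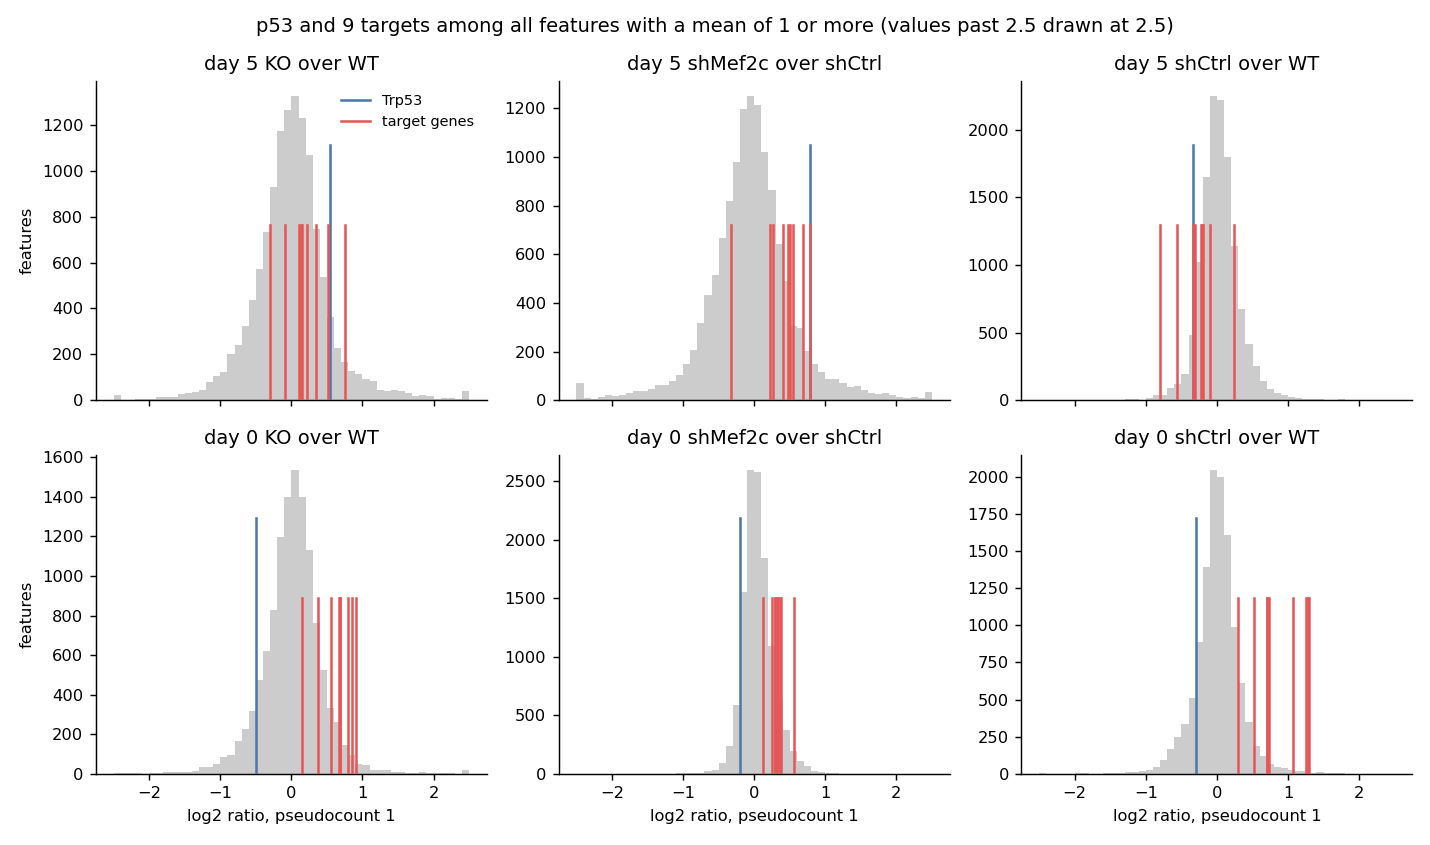
Distribution of log2 ratios (pseudocount 1) over all features with a mean of 1 or more in 6 comparisons (grey; day 5 above, day 0 below), with Trp53 as a blue line and the 9 targets as red lines of fixed height. The targets reach 1.30 for day 0 shCtrl over WT, in the right tail, and spread across the centre for day 5 KO over WT.

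Between the days, Trp53 and several of its targets took different directions. Day 5 over day 0 ratios cross tables that were normalised separately, so they were centred on the median of all shared features. Trp53 was lower at day 5 in all 4 groups, with a centred log2 ratio of -0.81 in KO, -0.87 in shMef2c, -1.96 in shCtrl and -1.86 in WT. Mdm2 was lower too, at -1.0 in KO, -1.75 in shMef2c, -2.05 in shCtrl and -1.08 in WT. So was Cdkn1a, at -1.04 in KO, -1.32 in shMef2c, -1.74 in shCtrl and -0.60 in WT. Bax, the cell death effector, was higher at day 5 throughout, at 0.92 in KO, 0.80 in shMef2c, 0.31 in shCtrl and 1.07 in WT. The other targets took different directions in different groups. In WT 4 targets passed 2-fold upwards (Phlda3, Bbc3, Ccng1 and Bax; 15.3% of 11989 features did) and Mdm2 passed it downwards (14.7%). In KO the genes past 2-fold were Cdkn1a and Mdm2, both lower (9.79% of 12015 features), in shMef2c the same genes, both lower (9.5% of 12129), and in shCtrl these genes and Trp53, all lower (15.3% of 12182). The median of the 9 targets was 0.17 in KO, -0.52 in shMef2c, -0.80 in shCtrl and 0.68 in WT. At day 0 WT was the lowest library for all 9 targets, as given above, and KO lay below shCtrl for 8 of them. The part of these day 0 levels in the medians was not tested.

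Trp53 and Ccng1 lie on chromosome 11 and Cdkn1a on chromosome 17, and these chromosomes differed as a whole in some comparisons. At day 0 the chromosome 11 median on the log2 scale was -0.38 over WT in KO (995 features, 15.3% above 0) and -0.44 over WT in shCtrl (992 features, 8.27% above 0). The next lowest chromosome median was -0.20 (chromosome 17) for KO over WT and -0.01 (X) for shCtrl over WT. In the library labelled shMef2c the day 0 chromosome 11 median was also -0.44 over WT. It was 0.06 for KO over shCtrl and 0.005 for shMef2c over shCtrl. The day 0 WT library, with high chromosome 11 values, was thus the one that stood apart, and it is the reference of the day 0 ratios over WT that follow. Over WT, Trp53 followed its chromosome, at -0.50 in KO and -0.30 in shCtrl, or -0.12 and 0.14 relative to the chromosome's median. Ccng1 went against its chromosome over WT, at 0.80 and 0.73, or 1.18 and 1.16 relative to it. With shCtrl as the day 0 reference, Trp53 was below its chromosome. It stood at -0.20 in KO and -0.19 in the library labelled shMef2c, or -0.26 and -0.20 relative to the chromosome's median. At day 5 chromosome 17 had a median of -0.30 for KO over WT (601 features, 20.3% above 0), equal to the -0.30 of Cdkn1a, which was -0.01 relative to it. In the other KO comparisons Cdkn1a lay above chromosome 17. Relative to it, Cdkn1a was at 0.79 for day 5 KO over shCtrl, 0.35 for day 0 KO over WT and 0.08 for day 0 KO over shCtrl. The day 5 chromosome 11 median was 0.01 (KO over WT) and -0.18 (shMef2c over shCtrl), so Trp53 was at 0.54 and 0.96 relative to it. The DNA of these lines was not measured, and the part of the chromosomes in these ratios was not tested.

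**Figure D4:**
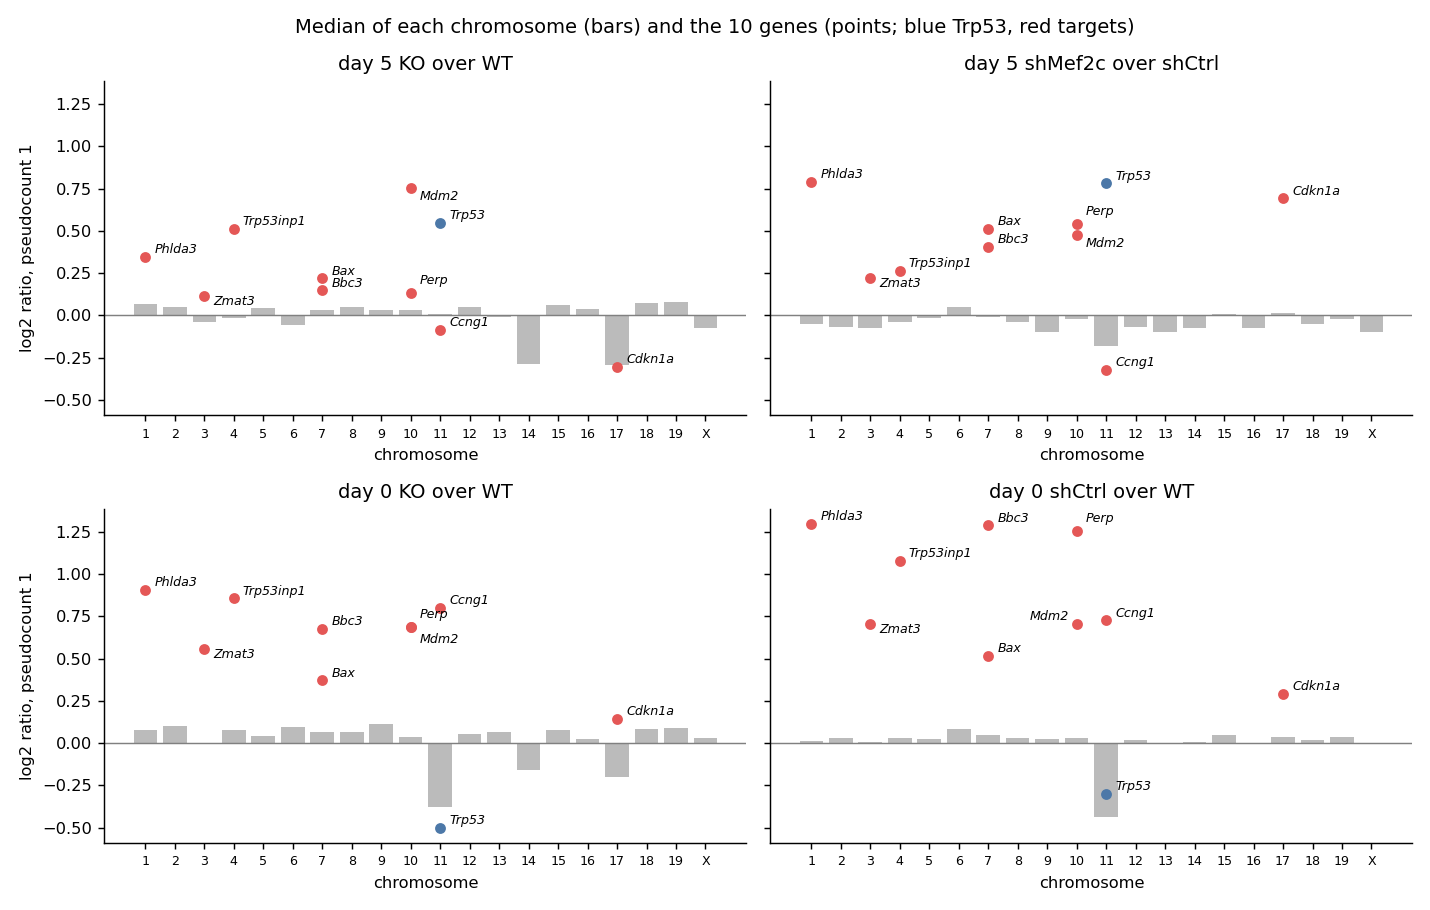
Median log2 ratio (pseudocount 1) of all features on each chromosome (grey bars) with Trp53 (blue) and the 9 targets (red) placed on their chromosomes, for 4 comparisons, day 5 above and day 0 below. Chromosome 11 is at -0.38 and -0.44 at day 0 with Trp53 near it and Ccng1 far above it, and chromosome 17 is at -0.30 for day 5 KO over WT with Cdkn1a on the bar.

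A list of 38 further p53 targets, all 38 in the day 5 files and 37 in the day 0 table, had medians of the same sign as the 9 targets in all 6 comparisons. At day 5, KO over WT, its median log2 ratio was 0.16, with 27 of the 36 genes that had a mean of at least 1 above 0 (50% of all features). The day 5 median was 0.23 in shMef2c over shCtrl (24 of 35 above 0, against 45.1% of all features) and -0.20 in shCtrl over WT (8 of 34, against 53.8%). At day 0 the median was 0.38 in KO over WT (29 of 37, against 53.4%), 0.23 in shMef2c over shCtrl (32 of 37, against 57.3%) and 0.48 in shCtrl over WT (32 of 37, against 51.2%). More of these targets than of all features were thus higher at day 0 in each of these comparisons. With the other control library, the day 0 median of KO over shCtrl was -0.03 (18 of 37 above 0, against 53.9% of all features), and the day 5 median of shMef2c over WT was 0.07 (20 of 35, against 46.9%). These genes were listed with earlier results of these data known, and the comparisons share their control libraries.

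Among the genes past 2-fold at day 5, KO held more Gadd45a, a growth arrest and repair protein (33.8 FPKM, against 14.1 in WT), and Gdf15, a secreted stress factor (1.77 against 0.33). In shMef2c, Epha2, a receptor tyrosine kinase, stood at 35.1 FPKM against 5.50 in shCtrl, Sfn, the checkpoint protein 14-3-3 sigma, at 23.2 against 4.44, Pml, a nuclear body protein, at 28.4 against 8.96, and Gadd45a at 32.3 against 13.9. None of the list was lower by that size in either comparison. The authors' deposited tables of day 5 genes list 2253 features (KO over WT) and 2758 features (shMef2c over shCtrl), with 0 of the 10 genes in either. In the authors' deposited table of KO and WT, the log2 ratio is 1.26 for Gadd45a and 2.42 for Gdf15. In the authors' deposited table of shMef2c and shCtrl, it is 2.67 for Epha2, 2.39 for Sfn and 1.67 for Pml. Epha2 and Sfn are epithelial genes, and 7 of 10 surface epithelium markers had a mean of at least 1 at day 5. The rest, Krt5, Krt14 and Trp63, were at 0.36 FPKM or less in every day 5 library. Cdh1 already stood at 87.3 to 100 RPKM in the day 0 stem cell libraries, so the list does not show that surface epithelium was present. For shMef2c over shCtrl 5 of the 7 were higher (Epcam, Cdh1, Cldn6, Cldn4 and Grhl2), with a median log2 ratio of 0.69, while Krt8 (95.4 FPKM in shMef2c against 179.7 in shCtrl) and Krt18 (84.2 against 223.5) were lower. For KO over WT all 7 were higher, with a median of 0.61. The 10 markers summed to 372 FPKM in KO, 467 in shMef2c, 601 in shCtrl and 281 in WT, and their part in the levels of these targets was not tested.

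At day 0 the genes past 2-fold for KO over WT were Pmaip1, the BH3-only death gene Noxa (13.1 RPKM, against 3.17 in WT), and Pidd1, a death domain protein induced by p53 (14.1 against 5.84). For shCtrl over WT they were Btg2, an inhibitor of proliferation (28.3 RPKM against 11.8), Pmaip1 (8.51 against 3.17), Dcxr, a sugar reductase (15.5 against 6.37), and Eda2r, a receptor of the tumour necrosis factor family (15.6 against 7.27). None passed it downwards. In the library labelled shMef2c no gene of the list passed 2-fold over shCtrl, as 0.231% of all features did.

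**Figure D5:**
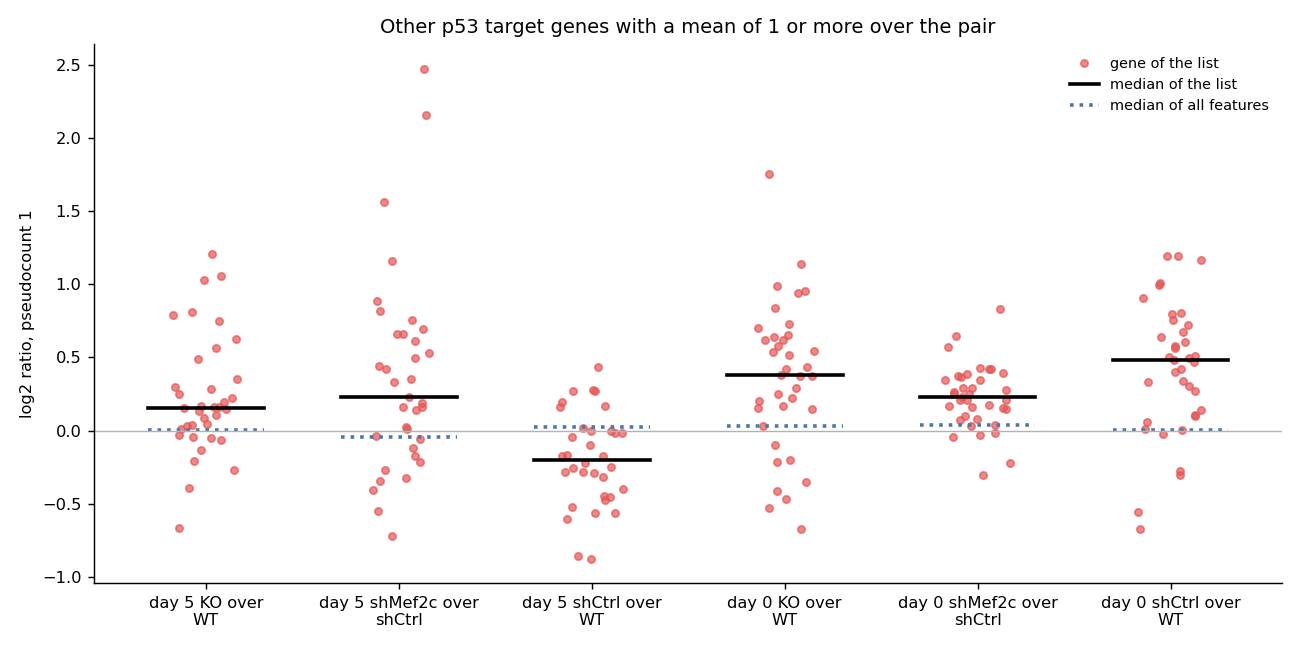
Log2 ratio (pseudocount 1) of each further p53 target (pair mean of at least 1) in 6 comparisons, with the median of the list (black) and of all features (dotted blue); points are spread sideways at random. The list's median lies above that of all features in 5 comparisons, by most for day 0 shCtrl over WT (0.48), and below it for day 5 shCtrl over WT (-0.20).

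Genes that act on p53 were followed too. Of 22 measured regulators (ubiquitin ligases, kinases, acetylases and their partners), only Cdkn2a passed 2-fold in the 6 comparisons within a day. It did so for day 5 KO over WT, where 7.31% of all features passed, and for day 5 shCtrl over WT, where 0.996% did. For day 5 shMef2c over shCtrl 9.26% of all features and no regulator passed. These counts do not set the regulators apart from other genes. Cdkn2a encodes Arf, which holds Mdm2 away from p53, and the kinase inhibitor p16. It stood at 6.51 FPKM in KO, 3.21 in shMef2c, 4.59 in shCtrl and 1.76 in WT at day 5. Over the regulators the median log2 ratio was 0.25 for day 5 KO over WT and lay between -0.01 and 0.09 in the other 5 comparisons. Mdm4, the partner of Mdm2 that blocks p53's activation domain, stood at 36.5 RPKM in KO, 37.2 in the library labelled shMef2c, 35.3 in shCtrl and 26.2 in WT at day 0, so WT was low here too. Trp73, a p53 relative that can bind the same sites, stood at 1.13 FPKM in KO, 2.78 in shMef2c, 0.58 in shCtrl and 0.80 in WT at day 5, and at 1.51 RPKM in KO, 4.51 in the library labelled shMef2c, 3.07 in shCtrl and 0.57 in WT at day 0. It shared the low WT and high shMef2c values of the targets at day 0. Trp63, the other relative, was at 0.11 or less in every library.

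Across the 8 libraries, with log2 values centred within each day, the profile of Trp53 was unlike that of its targets. Pearson's r of Trp53 with the 9 targets ran from -0.52 (Ccng1) to 0.23 (Mdm2), and that of Cdkn1a with the other 8 from 0.48 (Ccng1) to 0.78 (Phlda3). Over 7567 features with a mean of 5 or more on both days, the profiles most like that of Trp53 were those of Tars2 (0.99), Tns3 (0.99) and Tnk2 (0.99), and those most like Cdkn1a were Atp6v0a2 (0.97), Rad52 (0.95) and Kifc5b (0.94). With 8 libraries of which 4 share a day, these values are descriptions and carry no p-value.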

How the data were processed

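Polyadenylated RNA of 8 cultures was sequenced, 1 library per group, and groups were taken from the labels. The authors deposited, per the file headers, for each day 5 library FPKM and estimated counts (expected counts, some of them fractional), and 1 table of RPKM and estimated counts for day 0. They also deposited day 5 comparison tables with log2 ratios and false discovery rates (adjusted p-values), per the file headers. Per the submitters' processing notes, the tools included RSEM, HISAT, HISAT2, Bowtie and Bowtie2, with no role stated, and the build was mm9. The sources used here do not say if counting used strand, so reads of overlapping genes cannot be told apart.

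Rows were matched by gene symbol. Ratios are log2((value + 1)/(value + 1)) on FPKM or RPKM, where the 2 libraries of a pair average at least 1, and the pseudocount makes ratios of scarce genes smaller. A feature counts as called at 2-fold or more. Intervals are exact (Clopper-Pearson, scipy 1.17.1) 95% intervals on the ratio of read shares. They were tested on simulated counts that held counting error only, which could not test them against differences between cultures. Promoter windows come from RefSeq (GRCm38.p6), not mm9, and are used for their sequence and for the chromosome only. The 10 genes, the other lists and the rule for naming genes (list members past 2-fold, at most 6 per list and comparison) were chosen with earlier results of these data known. Some genes that met this rule are not reported here. Mdm4, Trp73 and Trp63 were named after their values were seen. As alternatives, the pseudocount was set to 0.1, the filter was dropped or raised to 5, and the ratios were taken from TPM, estimated counts with edgeR 4.0.16 TMM factors or DESeq2 1.42.0 size factors (rounded, with no test). Folds of 1.5 and 4, the other control library, no centring and, chosen after seeing the data, ratios relative to the chromosome's median were also tried. Python 3.11.15 and R 4.3.3 were used.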

Additional observations from a re-analysis of the deposited data

Results flagged for a closer look

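In 13 cases a gene lay above its control beyond counting error on one day and below it on the other. The share of all features that turned in this way was not counted, so the number does not set these genes apart. With 1 library per group the difference between days was not tested, and each value is the day 5 log2 ratio minus the day 0 log2 ratio. For KO over WT, the differences were 1.05 for Trp53 (0.55 at day 5 and -0.50 at day 0), -0.45 for Cdkn1a (-0.30 and 0.15) and -0.88 for Ccng1 (-0.09 and 0.80). For shMef2c over shCtrl they were 0.98 for Trp53 (0.78 and -0.19) and -0.69 for Ccng1 (-0.32 and 0.37), where the day 0 library is the one whose Mef2c level runs against its label. For shCtrl over WT they were -1.86 for Phlda3 (-0.57 and 1.30), -1.62 for Bbc3 (-0.33 and 1.29), -1.17 for Trp53inp1 (-0.09 and 1.08), -1.09 for Cdkn1a (-0.80 and 0.29), -1.01 for Zmat3 (-0.31 and 0.71), -0.95 for Ccng1 (-0.22 and 0.73), -0.92 for Mdm2 (-0.21 and 0.71) and -0.71 for Bax (-0.19 and 0.52). Thus 8 of the 13 cases compare the 2 control libraries with each other. The day 0 Trp53 ratio for KO over WT was -0.12 relative to the chromosome 11 median, as given above.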

How the results depend on the processing

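Within a day, the other pseudocount and filters could not turn the sign of these genes' ratios. The count of sign changes over the processing alternatives is therefore no measure of robustness. Over 680 ratios of the 10 genes under the processing alternatives, 1 changed sign: Trp53 for day 0 shCtrl over WT, 0.14 relative to its chromosome and -0.30 otherwise. Under the other control library 13 of 40 did, 8 of them targets for day 0 KO over WT, 3 for day 5 KO over WT (Perp, Cdkn1a and Ccng1) and 2 for day 5 shMef2c over shCtrl (Cdkn1a and Zmat3). At a fold of 1.5 in place of 2, the number of the 10 genes called was 1 in place of 0 for day 5 KO over WT, 3 in place of 0 for shMef2c over shCtrl, 1 in place of 0 for shCtrl over WT, 6 in place of 0 for day 0 KO over WT and 7 in place of 4 for day 0 shCtrl over WT. For day 5 over day 0 it was 5 in place of 2 in KO, 6 in place of 2 in shMef2c and 6 in place of 3 in shCtrl. At a fold of 4 it was 0 for day 0 shCtrl over WT, 0 in KO, shMef2c and WT (6 in WT at 2-fold) and 1 in shCtrl for day 5 over day 0. Relative to the chromosome, 1 gene was called for day 0 KO over WT, and with WT as control 6 were for the day 0 library labelled shMef2c, against 0 each. In KO, day 5 over day 0 gave 1 in place of 2 with no filter, with a mean of 5 or more and without centring, since Mdm2 lay at the limit (-1.0) and the centring moved slightly. The deposited tables list none of the 10 genes and so gave no value.

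Over all features, the count past 2-fold ranged with the processing from 502 to 1509 (938 as reported) for day 5 KO over WT, 623 to 1865 (1208) for shMef2c over shCtrl and 57 to 353 (128) for shCtrl over WT, and at day 0 from 204 to 689 (352), 7 to 93 (28) and 83 to 314 (151). For day 5 over day 0 it ranged from 1429 to 3096 (2387) in KO, 1409 to 2943 (2288) in shMef2c, 2446 to 4553 (3725) in shCtrl and 2394 to 4382 (3598) in WT, each lowest with a mean of 5 or more. No paired analysis was possible because each group has 1 library per day. No replicate could be left out for the same reason, and depth limits only the scarce genes, with 214 reads or more behind every value of the 10 genes.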

Other observations

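Some cell death and cell-cycle genes next to p53 are named here. Of 24 BCL2 family and caspase genes, 1 passed 2-fold upwards and 1 downwards for KO over WT at day 5, where 7.31% of all features passed in either direction. That count does not set the family apart. The lower one, Bcl2l2, a survival gene on chromosome 14, stood at 3.31 FPKM in KO against 7.98 in WT, where that chromosome had a median log2 ratio of -0.28. At day 0, 2 of the 22 genes with a mean of at least 1 passed 2-fold upwards for KO over WT and 0 downwards. Over all features 2.93% passed in either direction. Of these genes, Xiap, an inhibitor of caspases, stood at 14.0 RPKM in KO against 4.21 in WT. No member passed 2-fold for shMef2c over shCtrl on either day, against 9.26% of all features at day 5 and 0.231% at day 0.

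Of the 6 inhibitors of cyclin-dependent kinases, Cdkn1c, an imprinted gene, stood at 2.85 FPKM in shMef2c against 127 in shCtrl at day 5, with a log2 ratio of -5.05, while Cdkn1a was higher in shMef2c. Cdkn2c stood at 0.43 against 1.89 in the same comparison. In KO, Cdkn1b stood at 9.41 FPKM against 21.8 in WT at day 5. Of 18 cell-cycle genes that p53 lowers through p21 and the DREAM complex, Mybl2 passed 2-fold at day 5, at 83.7 FPKM in KO against 36.4 in WT and at 79.2 in shMef2c against 30.7 in shCtrl. Over all features 7.31% and 9.26% passed 2-fold in these comparisons. The median log2 ratio of these 18 genes was 0.02 for KO over WT, 0.17 for shMef2c over shCtrl and -0.18 for shCtrl over WT at day 5, and lay between -0.09 and 0.06 at day 0.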
